A study of Mus musculus with 4 samples.

Results

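The AP-1 transcription factors were followed in cells sorted as marginal zone macrophages from the spleens of autoimmune BXD2 mice. Members were taken as every probe whose single gene symbol is Fos, Fosb, Fosl1, Fosl2, Jun, Junb, Jund, Atf3, Batf or Maff. This gave 13 of the 45281 probes, for 9 of the 10 listed genes. No probe of Fosl1 was analysed here. Of the 13 probes, 10 lay above background on all 4 arrays, 1 second probe of Maff lay above it on the Ifnar-/- array alone, and the third probe of Fosl2 and the second of Junb lay above it on none.

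AP-1 is a family of dimers joined through leucine zippers that bind short DNA elements in promoters and enhancers. Fos proteins must pair with a Jun protein to bind, whereas Jun proteins also pair with each other. Fos, Fosb, Jun and Junb are immediate early genes, switched on by growth factors, cytokines and stress without new protein synthesis, and their mRNAs decay quickly. In macrophages AP-1 works at enhancers opened by lineage factors and takes part in the induction of cytokine and chemokine genes.

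The arrays were single-colour bead arrays of 4 samples, each pooled from 2 mice aged 2.5 months. A single array came from BXD2 mice injected intravenously with 25 µg sLTβR-Fc, a soluble decoy receptor for lymphotoxin (sLTβR-Fc array). Another came from BXD2-Ifnar-/- mice, which lack the type I interferon receptor, given PBS (the array labelled Ifnar-/-, called the Ifnar-/- array after its label), and 2 came from BXD2 mice given PBS (control 1 and control 2). All mice were killed 10 hours after injection, and the cells were gated as CD11b low, F4/80 negative, I-Ab negative and SIGN-R1 positive. The Ifnar deletion is given for the animal and not for a cell type, and there was no control-Fc array.

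On every array 50.9% to 53.0% of probes lay above background, and the deposited intensities had an upper quartile of 146 on the sLTβR-Fc array and 156 on the Ifnar-/- array, against 188 and 179 on the controls. Values below are quantile-normalised intensities, which still contain background, so the differences of dim genes are understated. The single probe of Ifnar1, the deleted receptor chain, read 117 on the sLTβR-Fc array and 191 on the Ifnar-/- array, against 157 and 149 on the controls. It was thus not lower on the array labelled Ifnar-/- (log2 0.32, limma adjusted p = 0.0425). Where this probe lies relative to the deleted part is not given in the sources used, so the label was not checked by it. Cd209b, which encodes SIGN-R1, read 145 on the sLTβR-Fc array and 152 on the Ifnar-/- array, against 127 and 130.1 on the controls, near the background limit. H2-Ab1, the gene of the MHC class II chain carried by the cells that the gate was set to leave out, read 9488, 16290, 8662 and 8305 in the same order. The label of the cells is therefore kept here as the sort gate and not as a purity. In pooled cells a change in the cells present and a change in RNA per cell cannot be told apart.

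The promoters of the members that stood highest are shown because these genes moved together, with that of Jund, which did not, for comparison. Each is the RefSeq sequence (GRCm38.p6) of the 250 bases before the annotated start, written 5′ to 3′ on the gene's strand. Capitals mark TGACG on either strand (the core of a cyclic AMP response element), TGANNTCA (an AP-1 or CRE-like palindrome, which overlaps TGACG when its middle bases are CG) and TGAGTCA on either strand (the classical AP-1 element).
Fos (chr12:85473640-85473889, plus strand): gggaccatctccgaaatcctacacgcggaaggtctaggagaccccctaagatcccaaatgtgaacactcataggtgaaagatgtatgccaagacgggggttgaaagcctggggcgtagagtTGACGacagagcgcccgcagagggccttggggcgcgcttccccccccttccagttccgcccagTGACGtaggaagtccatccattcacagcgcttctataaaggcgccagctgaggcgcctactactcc
Fosb (chr7:19310046-19310295, minus strand): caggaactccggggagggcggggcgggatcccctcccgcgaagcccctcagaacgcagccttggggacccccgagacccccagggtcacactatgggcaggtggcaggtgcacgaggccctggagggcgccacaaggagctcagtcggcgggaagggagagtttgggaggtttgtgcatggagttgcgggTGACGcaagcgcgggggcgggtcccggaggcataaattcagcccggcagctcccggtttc
Jun (chr4:95052223-95052472, minus strand): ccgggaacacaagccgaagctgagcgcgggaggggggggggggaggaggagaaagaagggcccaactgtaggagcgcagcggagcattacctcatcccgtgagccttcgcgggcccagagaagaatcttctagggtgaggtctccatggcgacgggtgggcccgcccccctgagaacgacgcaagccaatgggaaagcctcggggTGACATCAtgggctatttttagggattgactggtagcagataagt
Junb (chr8:84978749-84978998, minus strand): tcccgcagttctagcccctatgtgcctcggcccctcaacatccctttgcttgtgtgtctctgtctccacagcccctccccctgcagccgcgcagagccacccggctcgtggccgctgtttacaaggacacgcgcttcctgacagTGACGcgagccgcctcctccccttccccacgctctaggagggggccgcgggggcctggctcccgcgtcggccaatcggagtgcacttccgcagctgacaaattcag
Atf3 (chr1:191183334-191183583, minus strand): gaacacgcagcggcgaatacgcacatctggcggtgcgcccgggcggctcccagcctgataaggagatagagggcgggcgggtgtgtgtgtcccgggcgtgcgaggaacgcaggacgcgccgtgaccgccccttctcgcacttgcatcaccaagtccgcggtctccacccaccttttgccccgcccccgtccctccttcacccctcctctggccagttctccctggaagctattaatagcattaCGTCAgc
Jund (chr8:70697489-70697738, plus strand): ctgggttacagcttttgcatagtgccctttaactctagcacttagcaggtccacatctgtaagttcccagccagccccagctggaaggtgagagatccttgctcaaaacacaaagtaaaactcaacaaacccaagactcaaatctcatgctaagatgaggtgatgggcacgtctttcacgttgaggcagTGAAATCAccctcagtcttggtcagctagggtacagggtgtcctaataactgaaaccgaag

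TGACG was found before the starts of Fos, Fosb, Junb, Atf3, Batf and Maff, 6 of the 9 genes. Counted by window, 7 of the 11 windows of these 9 genes held it, against 17.8% of 32851 mouse promoter windows of this length. Its match nearest the start began 66 bases before it in Fos, 60 in Fosb, 106 in Junb and 7 in Atf3. Jun instead held TGACATCA, beginning 45 bases before its start, one form of TGANNTCA, which is present in 11.9% of all windows. The whole palindrome TGACGTCA occurred in 1 of the 3 annotated promoters of Maff and in 1.55% of all windows. TGAGTCA was in none of the windows of the 9 genes (4.46% of all). The CArG box, bound by serum response factor, was in none of them either (1.47% of all). Bases further upstream than these windows were not searched. Whether Fos or the other genes hold either element there was not tested. Batf, which holds TGACG, and Jund, which holds TGAAATCA, were not among the high genes, so these letters did not sort the high members from the others.

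Fos, the best known of the Fos proteins, read 8131 on the sLTβR-Fc array and 6557 on the Ifnar-/- array, against 3484 on control 1 and 2473 on control 2. Both arrays lay above both controls, and the controls were 0.49 apart on the log2 scale, a gap at least matched by 2.23% of the 14375 genes compared. Against the control mean Fos was 2.77-fold on the sLTβR-Fc array (log2 1.47 ± 0.19, SE, limma adjusted p = 1.37e-06) and 2.23-fold on the Ifnar-/- array (log2 1.16 ± 0.19, limma adjusted p = 5.01e-05). Its Ifnar-/- value was 1.88-fold control 1 and 2.65-fold control 2, so it missed the 2-fold rule used here, which asks for a log2 difference of at least 1 from each control.

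Fosb, a close relative of Fos that is also expressed as a shortened splice form, read 3256 on the sLTβR-Fc array and 1629 on the Ifnar-/- array, against 689 and 384 on the controls. It had the widest control gap of the family, 0.84 on the log2 scale, which 0.397% of genes matched or passed. It also had the largest difference of any member on the sLTβR-Fc array, 6.33-fold the control mean (log2 2.66 ± 0.23, limma adjusted p = 1.39e-09), with 4.72-fold control 1 and 8.47-fold control 2. The Ifnar-/- array gave 3.16-fold (log2 1.66 ± 0.23, limma adjusted p = 5.38e-06).

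Fosl2, which encodes Fra-2, followed another order. Its brightest probe read 386 on the sLTβR-Fc array and 639.9 on the Ifnar-/- array, against 319 and 311 on the controls, so the Ifnar-/- array alone stood apart. There it was 2.03-fold the control mean (log2 1.02 ± 0.20, limma adjusted p = 0.000464), close to the 2-fold line from either control (2.01-fold and 2.06-fold). On the sLTβR-Fc array the difference of 0.29 did not pass (limma adjusted p = 0.324). A second, dimmer probe read 140.3, 131, 120.3 and 123 in the same order and did not pass in either comparison (limma adjusted p = 0.0581 on the sLTβR-Fc array and 0.387 on the Ifnar-/- array).

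Jun, the founding Jun protein and a target of the JNK kinases, read 517 on the sLTβR-Fc array and 244 on the Ifnar-/- array, against 166 and 125 on the controls. It was 3.59-fold the control mean on the sLTβR-Fc array (log2 1.84 ± 0.19, limma adjusted p = 2.24e-08) and 1.69-fold on the Ifnar-/- array (log2 0.76 ± 0.19, limma adjusted p = 0.00475). As deposited, Jun on control 2 was 1.12 times the background limit, and the controls were 0.41 apart.

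Junb, which can restrain Jun and is prominent in activated myeloid and lymphoid cells, read 2644 on the sLTβR-Fc array and 1823 on the Ifnar-/- array, against 622 and 559.9 on the controls. Here the controls lay close together (log2 gap 0.15 in size) and both arrays lay far above them. The folds were 4.48 on the sLTβR-Fc array (log2 2.16 ± 0.20, limma adjusted p = 2.63e-09) and 3.09 on the Ifnar-/- array (log2 1.63 ± 0.20, limma adjusted p = 4.26e-07). Junb was also the member that was 2-fold higher on the Ifnar-/- array under every setting tried, the values as deposited included.

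Jund, the broadly expressed Jun protein that is not an immediate early gene, read 355 on the sLTβR-Fc array and 383 on the Ifnar-/- array, against 371 and 294 on the controls. The sLTβR-Fc value lay between the controls, and neither difference passed (log2 0.11 ± 0.21 and 0.22 ± 0.21, limma adjusted p = 0.767 and 0.538). Its sign turned in the values as deposited, at -0.53 and -0.09, and under median scaling at -0.08 on the sLTβR-Fc array.

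Atf3, a stress-induced factor of the ATF branch that pairs with Jun proteins, read 614 on the sLTβR-Fc array and 178 on the Ifnar-/- array, against 121 and 113 on the controls. The sLTβR-Fc array stood far from the rest. Atf3 was 5.25-fold the control mean there (log2 2.39 ± 0.16, limma adjusted p = 3.06e-12) and 1.52-fold on the Ifnar-/- array (log2 0.61 ± 0.16, limma adjusted p = 0.00771). As deposited, its control signals were only 1.11 and 1.02 times their background limits, and with the background removed by normexp the sLTβR-Fc difference was 2.93. A doubled floor, which lies above both control values and the Ifnar-/- value, gave 1.46 on the sLTβR-Fc array, where the call was lost (limma adjusted p = 0.0507), and 0 on the Ifnar-/- array.

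Maff, a small Maf protein without a transactivation domain of its own, read 190.04 on the sLTβR-Fc array and 135 on the Ifnar-/- array, against 119 and 121 on the controls. It was 1.58-fold the control mean on the sLTβR-Fc array (log2 0.66 ± 0.09, limma adjusted p = 3.33e-06), and its difference of 0.17 on the Ifnar-/- array did not pass (limma adjusted p = 0.226). As deposited, this probe was 1.46 times the background limit on the sLTβR-Fc array and 1.08 times on both controls. A doubled floor lies above its value on every array and gave 0. Its second probe was not above background on the sLTβR-Fc array. Batf lacks a transactivation domain and pairs with Jun proteins and interferon regulatory factors in lymphoid and dendritic cells. It read 136 on the sLTβR-Fc array and 137 on the Ifnar-/- array, against 156 and 149 on the controls. Batf was the one member below both controls on both arrays (log2 -0.17 ± 0.10 and -0.16 ± 0.10), without passing (limma adjusted p = 0.233 and 0.295). Under median scaling its sign turned on the sLTβR-Fc array, to 0.07. Without scaling, Batf was called lower on both arrays, at -0.38 and -0.35 (limma adjusted p = 0.0188 and 0.0492), with all genes then at a median of -0.20 and -0.10.

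**Figure D1:**
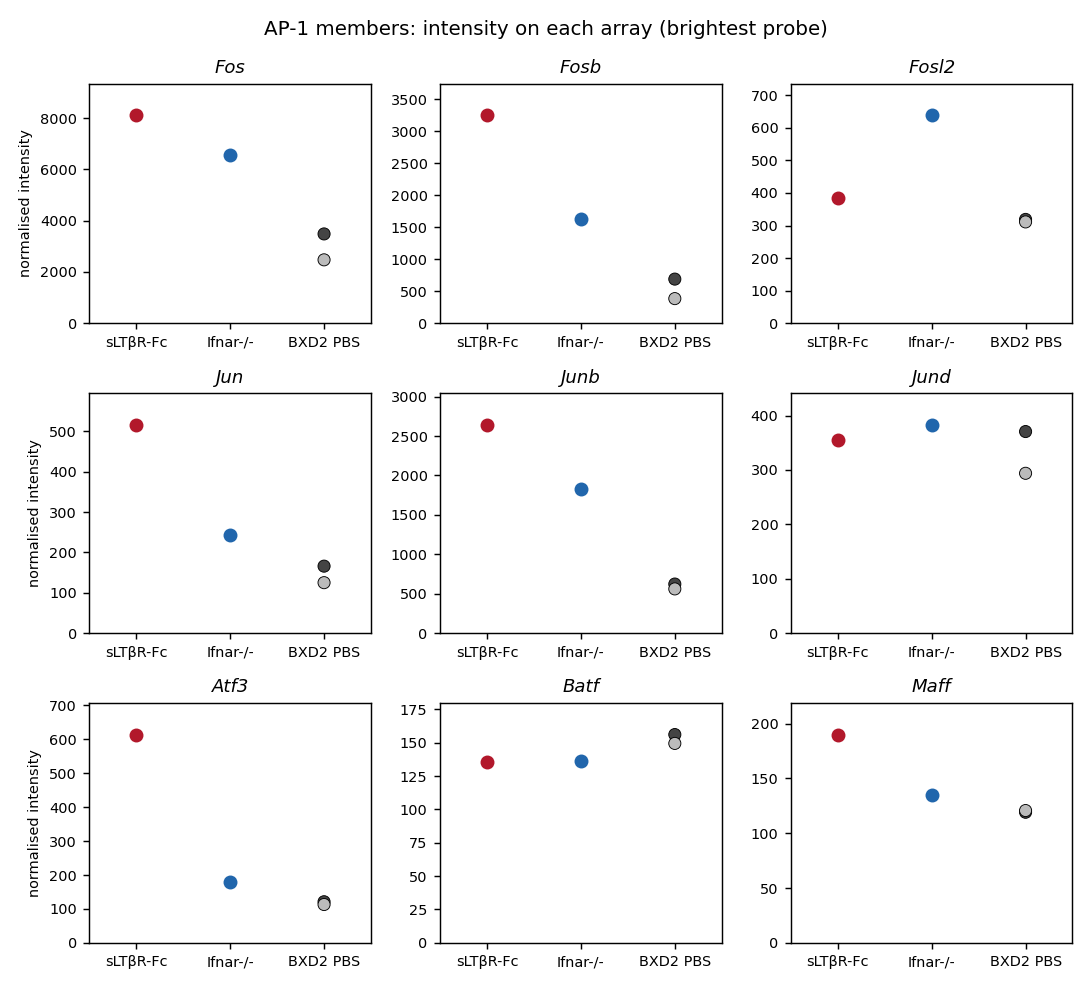
Quantile-normalised intensity (linear axis from 0, scaled separately for each gene) of the brightest probe of each member on the sLTβR-Fc array (red), the Ifnar-/- array (blue) and the BXD2 PBS controls (dark grey control 1, light grey control 2). Fos, Fosb, Jun and Junb ran in the order sLTβR-Fc, Ifnar-/-, controls, while Fosl2 was highest on the Ifnar-/- array at 639.9 and Batf lay between 136 and 156 throughout.

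Counted together, 5 of the 9 members were 2-fold higher on the sLTβR-Fc array than on each control (Fos, Fosb, Jun, Junb and Atf3), against 1.03% of the 14375 genes compared, and 0 were 2-fold lower (0.48% of genes). Above both controls lay 7 of 9 members, against 43.1% of genes, and below both lay 1 (Batf), against 31.2%. The members' median log2 difference was 1.47, and that of all genes was 0. In limma 6 of the 10 member probes tested rose on this array (Fos, Fosb, Jun, Junb, Atf3 and Maff) and 0 fell, where 10.6% of all 15713 probes were called higher and 9.23% lower (19.8% in all).

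On the array labelled Ifnar-/-, where the Ifnar1 probe was not low, 3 of 9 members were 2-fold higher (Fosb, Fosl2 and Junb), against 0.577% of genes, and 0 were 2-fold lower (0.96% of genes). Above both controls lay 8 of 9 members, against 41.6% of genes, and below both lay 1 (Batf), against 30.5%. The median was 0.76, beside 0 for all genes. In limma 6 of 10 member probes rose (Fos, Fosb, Fosl2, Jun, Junb and Atf3) and 0 fell, where 7.68% of probes were called higher and 8.13% lower (15.8% in all). Both comparisons use the same control arrays, so a low control reading raises a member in both.

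The spread in this fit comes from the control pair alone (1 residual degree of freedom, with a shared prior of 30.7) so each single array is taken to have the same spread as that pair. When probes above background on at least 1 array were fitted instead, the prior fell to 0.872 and limma called 0 of 23432 probes in either comparison. In that fit 7 and 5 of 11 member probes had an unadjusted p under 0.05 on the sLTβR-Fc and Ifnar-/- arrays (22.4% and 19.2% of all probes), with lowest member adjusted p values of 0.162 and 0.201. Under median scaling limma called 3 members on the sLTβR-Fc array (Junb, Atf3 and Maff) and 0 on the Ifnar-/- array, where 0 of all 15713 probes passed, although the folds themselves moved little.

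**Figure D2:**
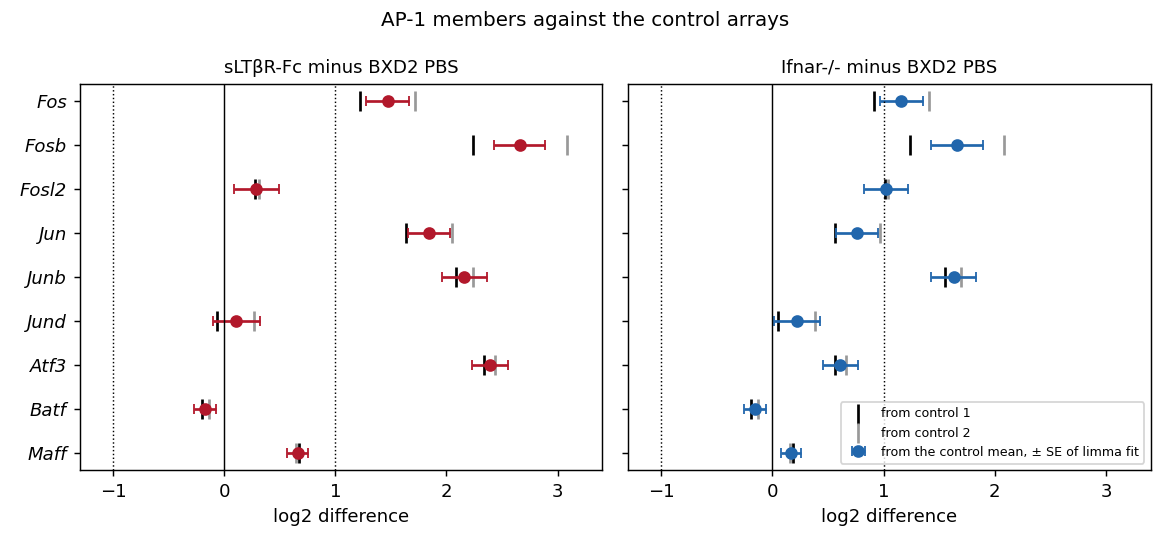
Log2 difference of each member from the BXD2 PBS controls on the sLTβR-Fc array (left) and the Ifnar-/- array (right); circles are differences from the control mean with the SE of the limma fit, ticks the differences from control 1 (black) and control 2 (grey), and dotted lines mark 2-fold. Fosb shows the widest pair of ticks, 2.24 and 3.08 on the sLTβR-Fc array, and Fosl2 on the Ifnar-/- array sits on the 2-fold line.

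Among all genes, differences of the size of Fosb, Atf3, Junb, Jun and Fos on the sLTβR-Fc array, in either direction, were reached by 0.0487%, 0.0765%, 0.125%, 0.223% and 0.626% of the 14375 compared. For the Ifnar-/- array the corresponding shares for Fosb, Junb, Fos, Fosl2, Jun and Atf3 were 0.424%, 0.473%, 1.44%, 2.05%, 4.75% and 7.93%. The control pair was not neutral for the family. Control 2 read below control 1 for 8 of 9 members, against 43.2% of genes, with a median of -0.15 over members and 0 over all genes. Maff was the exception, at 0.02. None of the members reached 2-fold between the controls, as 0.216% of genes did. The widest gaps belonged to Fosb, Fos, Jun and Jund, so the folds of these genes depend more on which control is used than those of Junb and Atf3.

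**Figure D3:**
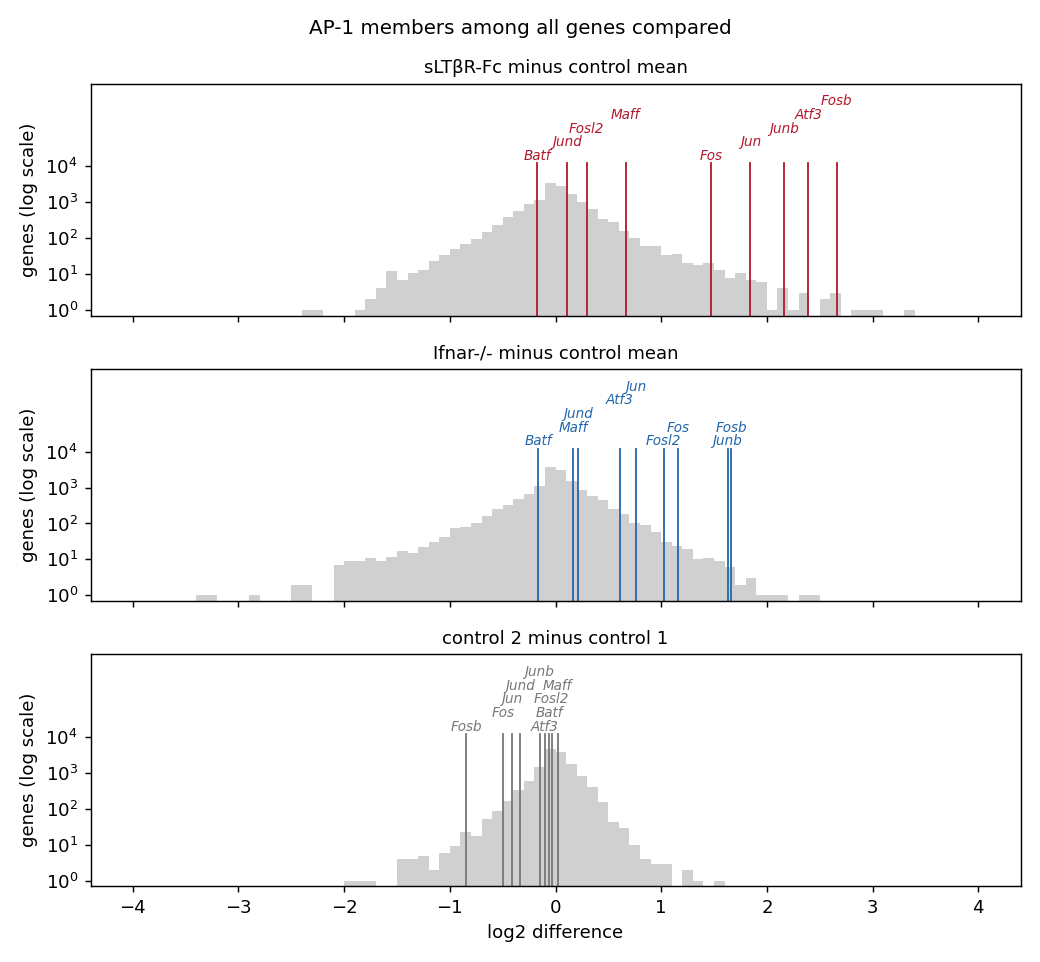
Number of genes (log axis) by log2 difference for the sLTβR-Fc array minus the control mean, the Ifnar-/- array minus the control mean, and control 2 minus control 1, with the members drawn as lines. Fos, Jun, Junb, Atf3 and Fosb lie in the sparse upper tail of the top panel, from 1.47 to 2.66, and Fosb lies at -0.84 between the controls.

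The sLTβR-Fc array was set directly against the array labelled Ifnar-/-, a contrast of 1 array with 1 array in the same fit. Atf3 was 3.44-fold higher on the sLTβR-Fc array (log2 1.78 ± 0.18, limma adjusted p = 2.37e-08) and Jun 2.12-fold (log2 1.08 ± 0.22, limma adjusted p = 0.000897). They were the 2 of 9 members past 2-fold, against 1.59% of genes, and 0 were 2-fold lower (0.723% of genes). Fosb, just short of that line (log2 1.00 ± 0.27, limma adjusted p = 0.013), and Maff (log2 0.50 ± 0.10, limma adjusted p = 0.00152) were also higher. Fosl2 went the other way, lower on the sLTβR-Fc array (log2 -0.73 ± 0.23, limma adjusted p = 0.0337). Fos and Junb, at 0.31 ± 0.22 and 0.54 ± 0.23, did not pass (limma adjusted p = 0.4 and 0.122). Thus 4 of 10 member probes were called higher and 1 lower, where 6.56% and 5.8% of all probes were (12.4% in all). Limma called 0 members in this contrast under median scaling, with a lowest member adjusted p of 0.101, and 0 in the fit of probes above background on at least 1 array, where 3 had an unadjusted p under 0.05 (21.1% of all probes) and the lowest member adjusted p was 0.169.

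Other genes of the pathway came from lists drawn up for this work with earlier results of these data known. Over all 15713 probes tested, limma called 10.6% higher and 9.23% lower on the sLTβR-Fc array, and 7.68% higher and 8.13% lower on the Ifnar-/- array, and each count below stands beside these shares. Of 13 tested bZIP relatives that dimerise with AP-1 proteins or share their branches, 5 rose and 1 fell on the sLTβR-Fc array, and 3 rose and 0 fell on the Ifnar-/- array. Cebpb, which encodes a C/EBP factor of myeloid cells, read 1189 and 812.5 on these arrays, against 299.9 and 245 on the controls, and differed from the control mean by 2.13 and 1.58 on the log2 scale. Batf3, a partner of Jun proteins in cross-presenting dendritic cells, was 2.52-fold on the Ifnar-/- array, where its further probe gave a log2 difference of 0.33.

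Calls among the kinases above AP-1 were near the share over all probes. Of 14 tested genes of the MAP kinase cascades 1 rose (Mapkapk2) and 1 fell (Map3k1) on the sLTβR-Fc array, and 0 rose and 2 fell (Mapk8 and Mapk9) on the Ifnar-/- array, where 19.8% and 15.8% of all probes were called in either direction. Mapk8 and Mapk9 differed by -0.84 and -0.57 there on their brightest probes, but their further probes had medians of 0.06 and -0.05. Over the 15 measured genes of the cascades the median differences were -0.02 on the sLTβR-Fc array and 0.08 on the Ifnar-/- array. These values are of mRNA and say nothing of kinase activity.

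Serum response factor, its ternary complex partners and early genes driven with Fos were mixed. Of 9 tested, 3 rose and 2 fell on the sLTβR-Fc array, and 1 rose and 0 fell on the Ifnar-/- array, the last no more than the share of 15.8% of all probes called there. Ier2, an immediate early gene, read 1725 on the sLTβR-Fc array and 435 on the Ifnar-/- array, against 493 and 237 on the controls, so the Ifnar-/- value lay between the controls. Egr1, an immediate early zinc finger factor, was 3.01-fold and 1.49-fold. Srf itself differed by -0.04 and -0.06.

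Of 12 tested genes that end the early response, 4 rose and 1 fell on the sLTβR-Fc array, and 5 rose and 0 fell on the Ifnar-/- array, beside 10.6% and 7.68% of all probes called higher. Dusp1, the phosphatase that inactivates MAP kinases, read 9203 and 8271, against 3047 and 3030 on the controls. Zfp36, which directs decay of early gene mRNAs, was 2.93-fold and 2.51-fold. Dusp2, a phosphatase of haematopoietic cells, was 2.74-fold on the Ifnar-/- array, and its further probe gave 1.27 there.

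Among 17 tested genes long described as AP-1 targets, 9 rose and 1 fell on the sLTβR-Fc array, and 8 rose and 0 fell on the Ifnar-/- array, beside 10.6% and 7.68% of all probes called higher. The medians over the 19 measured were 0.46 and 0.16. Il6, the cytokine gene, was 7.81-fold and 3.23-fold the control mean, and on the sLTβR-Fc array Ccl3 and Ccl4, which encode chemokines, stood at 4.59-fold and 3.41-fold. Cxcl2, a neutrophil chemokine, read 599 on the sLTβR-Fc array and 134 on the Ifnar-/- array, against 247 and 126 on the controls. Ccnd1, cyclin D1, was 1.48-fold on the sLTβR-Fc array and 3.17-fold on the Ifnar-/- array. These genes have many other regulators, and no binding was measured.

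The 5 genes whose mean-centred log2 profile over the 4 arrays lay nearest to that of Fosb, among 10620 others, were Ier3, Cebpb, Ppp1r15a, Hspa1b and Klf4, at Euclidean distances of 0.57, 0.59, 0.73, 0.75 and 0.82. With so few arrays this is a description only. Of the members, Junb was at 0.65, Jun at 0.91, and Fos and Atf3 at 1.01, with between 2 and 10 other genes nearer, whereas Maff, Fosl2, Jund and Batf lay from 1.88 to 2.50 away.

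Heat shock genes, early NF-κB response genes and markers of other cells were read on the same arrays. Among heat shock genes that also respond to tissue dissociation, 5 of 10 tested rose and 2 fell on the sLTβR-Fc array, and 2 rose and 2 fell on the Ifnar-/- array. Over all probes 10.6% were called higher and 9.23% lower on the sLTβR-Fc array, and 7.68% and 8.13% on the Ifnar-/- array. Hspa1a read 4248 on the sLTβR-Fc array and 1414 on the Ifnar-/- array, against 811 and 204.5 on the controls, and Hspa1b read 2974, 1602, 885 and 239. Their further probes differed by 0.22 and 0.12 on the sLTβR-Fc array, and the near-identical genes may share signal. Of 9 tested early NF-κB response genes, 5 rose on the sLTβR-Fc array and 6 on the Ifnar-/- array, with 0 falling in either, beside the same shares. Ier3, a stress-induced gene, was 6.10-fold and 2.25-fold. The part of handling in the AP-1 values was not tested.

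Over all probes, limma called 10.6% higher and 9.23% lower on the sLTβR-Fc array. On the Ifnar-/- array it called 7.68% and 8.13%. The counts of markers called below stand beside these shares. Eosinophil markers summed to 27940 over 5 genes on the sLTβR-Fc array and 4345 on the Ifnar-/- array, against 5112 and 5790 on the controls. Most of that sum was Prg2 on every array. All 5 lay above background on each array, and 4 of them rose on the sLTβR-Fc array. The 8 mast cell and basophil markers summed to 41200 and 13680, against 14500 and 18480, and 7 of them rose on the sLTβR-Fc array. On the Ifnar-/- array 1 rose (Gata2) and 2 fell (Mcpt8 and Prss34), both of these 2-fold lower (0.96% of genes). The 12 neutrophil markers summed to 70990 on the sLTβR-Fc array and 17970 on the Ifnar-/- array, against 50960 and 35170 on the controls. Mpo was the largest part of that sum on every array. Of 11 tested, 5 rose and 0 fell on the sLTβR-Fc array, and 0 rose and 9 fell on the Ifnar-/- array. The list was split on the sLTβR-Fc array, where Elane and Prtn3 were 5.69-fold and 3.68-fold, and Ltf and Camp 1.00-fold and 0.831-fold. The 6 B cell markers summed to 9549 and 21240, against 14260 and 13860, and most of this sum was Cd79b. Of these 6, 0 rose and 2 fell on the sLTβR-Fc array, and 4 rose and 0 fell on the Ifnar-/- array. The 7 T cell markers summed to 4518 and 5459, against 7764 and 9307. Of 5 tested, 4 fell on the sLTβR-Fc array and 3 on the Ifnar-/- array, and 0 rose on either. The 9 measured markers of marginal zone macrophages summed to 2244 on the sLTβR-Fc array and 1760 on the Ifnar-/- array, against 2863 and 1737. Axl and Csf1r read highest of the 9 on every array. On the Ifnar-/- array 5 of the 9 lay below both controls, against 30.5% of genes, and 3 of 7 tested fell (Axl, C1qa and C1qc). For the sLTβR-Fc array 1 of the 7 fell (C1qc), near the share of 9.23% of all probes. The 8 dendritic cell markers summed to 5257 and 5658, against 4677 and 4468, and most of this sum was Siglech. On the Ifnar-/- array 5 of 7 tested rose and 3 were 2-fold higher (0.577% of genes). The 4 NK cell markers summed to 12000 and 12630, against 14490 and 14270. Most of this sum was Prf1, which was not called on either array. On the Ifnar-/- array 2 of the 4 rose (Ncr1 and Klrk1), and on the sLTβR-Fc array 1 fell (Klrb1c). The 4 erythroid markers summed to 914.5 and 886.8, against 1951 and 1439, with Klf1 2-fold lower on both arrays (0.48% and 0.96% of genes). Of 4 monocyte markers tested, 1 rose on the sLTβR-Fc array and 2 on the Ifnar-/- array. Of 5 stromal and endothelial markers tested, 2 and 1 rose. In both of these lists 0 fell. The part of these cell types in the AP-1 differences was not tested.

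**Figure D4:**
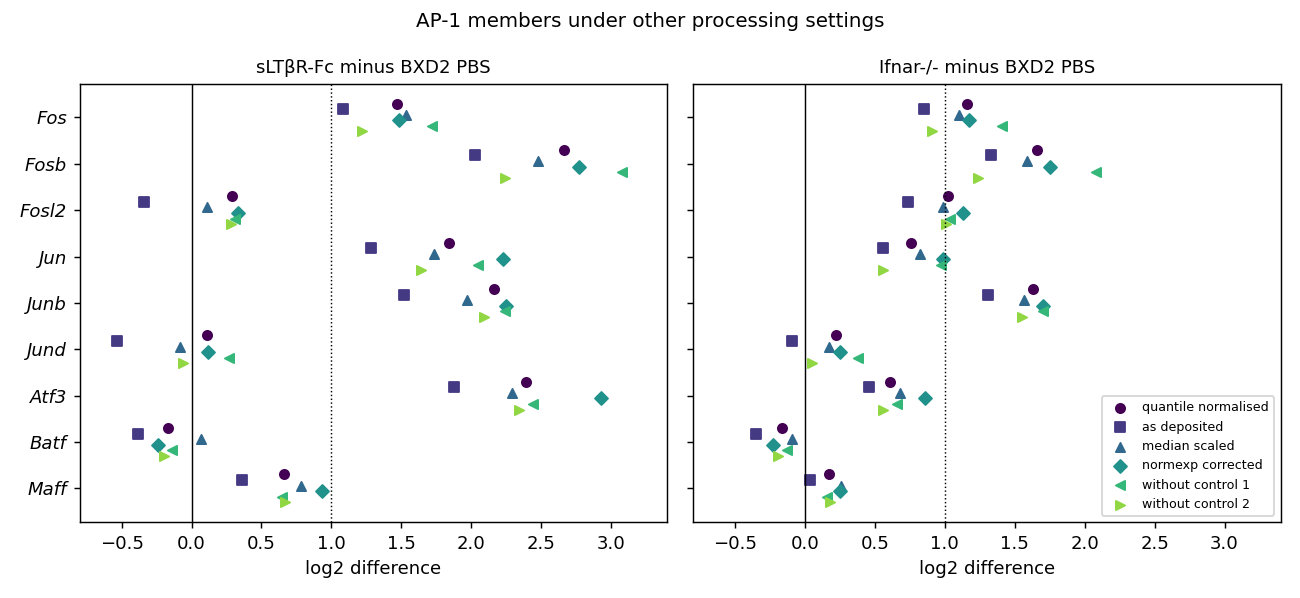
Log2 difference of each member from the BXD2 PBS controls on the sLTβR-Fc array (left) and the Ifnar-/- array (right) under quantile normalisation and 5 other settings, with 2-fold dotted. Values as deposited lie lowest for most members. The median of all genes is then -0.20 and -0.10. Fos, Fosb, Jun, Junb and Atf3 lie above the 2-fold line on the left in each setting drawn.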

How the data were processed

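RNA of sorted cells was labelled with an Ambion MessageAmp kit and read on Illumina arrays, per the labels' protocols, and GenomeStudio 2011.1 is named in the submitters' processing notes. The authors deposited unlogged intensities of 45281 probes. No source used here says whether they subtracted background or scaled the arrays.

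Genes were named from the platform annotation (34885 probes with 1 symbol, 18 with several, 10378 with none). Background was the most frequent intensity, with the spread mirrored from the values below it and a limit at its 95% point. Intensities were quantile normalised, raised to a floor of 111 and converted to log2. Each gene was represented by its brightest probe where above background on at least 1 array (14375 genes). limma 3.58.1 (R 4.3.3) fitted 3 group means with a mean-variance trend to 15713 probes above background on all 4 arrays, because values at the floor have no spread, with Benjamini-Hochberg adjustment to 0.05. It was also run on simulated data in which every array was given the spread of the control pair. That run cannot check whether the single arrays share this spread. Nothing says whether the controls were separate animals, so the p-values reflect the spread of this pair alone, which may be technical. The number of arrays limits the precision.

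Members, lists, the probe filter of the fit and the rule for naming genes (all members, and up to 4 genes per pathway list 2-fold from both controls on the sLTβR-Fc array and 2 on the Ifnar-/- array, the largest first) were chosen with earlier results of these data known. Mapkapk2, Map3k1, Mapk8, Mapk9 and Srf, and the genes in the closing section, were named after their values were seen.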

Additional observations from a re-analysis of the deposited data

How the results depend on the processing

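With 1 array per tested condition, the limma calls depend on the settings more than the folds do. On the sLTβR-Fc array the 6 member probes called became 7 as deposited (1 of them, Batf, lower), 3 under median scaling, 1 with the floor doubled, and 0 in the fits of probes above background on at least 1 array and of all probes with 1 symbol. For the Ifnar-/- array the 6 called became 5 as deposited (Batf lower added, Atf3 and Jun lost), 0 under median scaling, 0 with the floor doubled, 0 with probes above background on at least 1 array, 1 with all probes and 2 without the mean-variance trend. That 1 is the second Maff probe, above background on 1 array, and is none of the 6, which were all lost. For the sLTβR-Fc array against the Ifnar-/- array the 5 called became 2 as deposited, 0 under median scaling, 2 with the floor doubled, 0 with probes above background on at least 1 array, 1 with all probes and 1 without the trend. With all probes the 5 were again all lost, and the 1 is the second Maff probe, called lower. The prior was 30.7 in the fit used and 0.872 with probes above background on at least 1 array. What made the calls differ between settings was not tested. Over all probes the calls on the sLTβR-Fc array numbered 3113 in the fit used and 7010 as deposited, 1911 under median scaling, 451 with the floor doubled, 0 and 1468 in the wider fits and 440 without the trend. Those on the Ifnar-/- array numbered 2485, and 0, 452, 0, 1249 and 563 under median scaling, with the floor doubled, in the wider fits and without the trend. For the direct contrast they numbered 1942, and 949 as deposited, 0, 694, 0, 2301 and 78.

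The members' median on the sLTβR-Fc array was 1.47 and became 1.08 as deposited and 1.21 with the floor doubled, and lay between 1.22 and 1.72 with 1 control left out. On the Ifnar-/- array it was 0.76 and became 0.56 as deposited, 0.22 with the floor doubled, 0.99 with normexp (an alternative chosen after seeing the data) and 0.61 with the mean of all probes, and lay between 0.56 and 0.97 with 1 control left out. The count of members 2-fold higher on the sLTβR-Fc array was 5 with either control left out and 4 as deposited, where Fos is missed at 2-fold. The Ifnar-/- count was 3, and 1 as deposited (Junb), and between 3 and 4 with 1 control left out. Signs turned for Batf under median scaling (0.07 on the sLTβR-Fc array and 0.17 against the Ifnar-/- array), Fosl2 as deposited (-0.34 for its brightest probe on the sLTβR-Fc array and -0.02 for its second probe on the Ifnar-/- array) and Jund (-0.53 and -0.09 as deposited on the 2 arrays, -0.08 under median scaling on the sLTβR-Fc array). As deposited, 34 genes were 2-fold higher and 650 lower on the sLTβR-Fc array (148 and 69 after quantile normalisation), and 30 and 296 on the Ifnar-/- array (83 and 138). The median of all genes under median scaling was 0.17 on the sLTβR-Fc array. Limma without 1 control has no residual degree of freedom and gave no call. No paired analysis was possible because the groups compared share fewer than 2 replicate numbers.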

Other observations

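Some genes of the pathway and heat shock lists went against the AP-1 members on the sLTβR-Fc array. These were picked after their values were seen. Elk4, a ternary complex factor that works with serum response factor at the Fos promoter, read 454 on that array and 1036 on the Ifnar-/- array, against 792 and 1028 on the controls (log2 -0.99 ± 0.21 on the sLTβR-Fc array, limma adjusted p = 0.00085), but its further probes differed by -0.03. Mcl1, a short-lived survival protein gene, read 3370 and 4103, against 5527 and 5605 (log2 -0.72 ± 0.18, limma adjusted p = 0.00348). Btg1, an antiproliferative gene, was lower on both of its probes on the sLTβR-Fc array (log2 -0.62 on the brighter and -0.51 on the other). The chaperone genes Hspd1 and Hsp90aa1 fell there as well, by 0.63 and 0.72 on the log2 scale. Their further probes differed by -0.47 and -0.17, and control 2 minus control 1 was -0.61 for Hsp90aa1.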
